A study of Mus musculus with 9 samples.

Results

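The comparison described here set mouse B cells after 2 h of antigen receptor crosslinking against the same kind of cells after 1 h, and asked which transcripts declined and which appeared between the 2 times. It takes 6 of the 9 arrays of the series, chosen by their deposited titles: 3 labelled as 1 h of anti-IgM and 3 labelled as 2 h. The B cells were purified from spleens of C57BL/6 mice aged 8 weeks, and the B cell receptor was crosslinked with goat F(ab')2 antibody to mouse IgM at 2.5 µg/ml. The other 3 arrays are untreated cells of the same source, and they are given here as a baseline. IL-4 (5 ng/ml) and CD40L (200 ng/ml) appear in the treatment protocol of every sample, and it is not stated for which of them they were used. The series text gives 3 h of anti-IgM where the sample labels give 1 and 2 h, and the labels were followed. Whether replicates came from different mice or cultures is not stated, so p-values reflect the spread among these arrays alone, and that spread may be technical.

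Crosslinking of the B cell receptor activates kinases of the SRC, SYK and BTK families, and from them calcium, ERK and NF-kappaB signalling. The immediate-early genes, among them the EGR and FOS families, are the first to be transcribed because the factors that drive them are already present in the cell. Their mRNAs are known to be short-lived, and a second group of genes, which includes cytokine genes and the growth programme linked to MYC, usually follows them. In resting B cells the receptor pathway is held ready and FOXO-driven quiescence genes are expressed.

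Each array gave a linear intensity per probe, and a gene is represented by its probe with the highest mean. Levels were compared as log2 of the intensity plus 50, a scale that understates the change of dim genes. A probe counted as above noise at an intensity of about 6.44. Between 19088 and 19112 probes per array were above noise, and each comparison covered 14640 genes and unnamed probes. Of the 15 B cell markers 10 had a usable probe, and their summed intensity was 29976 to 37199 at 1 h and 30837 to 37934 at 2 h, so transcripts of the labelled cell type were present at both times. Cd79a, Cr2, Ighm and Ighd were not among the usable probes. Summed levels of other cell types overlapped between the times for T cells (8 of 15 markers measured, 603 to 1207 at 1 h and 792 to 1129.8 at 2 h), NK cells (5 of 10, 839.8 to 1277 and 858 to 1500.0) and erythroid cells (10 of 16, 1473 to 9616 and 1199 to 10990.4). They also overlapped for macrophages and monocytes (9 of 15, 602 to 1559 and 761 to 1456) and neutrophils (13 of 14, 794 to 4394 and 1168 to 4044), as well as for dendritic cells (5 of 10, 83.2 to 128 and 107 to 259), plasma cells (5 of 8, 8534 to 15043 and 11442 to 12378) and stroma (5 of 10, 68.5 to 192 and 59.2 to 206). The overlap hides a concentration on single arrays. Erythroid and neutrophil sums were highest on 1 h replicate 3 (9616 and 4394) and 2 h replicate 1 (10990.4 and 4044). Hba-a1, a hemoglobin gene, had 141, 67.4 and 2644 at 1 h (replicates 1, 2 and 3) and 2600, 217 and 325 at 2 h. On 1 h replicate 2 most of the erythroid sum (4358) was Tfrc (3941), which is also listed among transporters. Megakaryocyte and platelet markers (2 of 8) summed to 5.26 to 8.34 at 1 h and 17.9 to 40.7 at 2 h, near noise. Trac, Cd4, Ncr1 and Gzma were among the T and NK cell markers with no usable probe. The plasma cell sum came almost wholly from Xbp1, Mzb1 and Irf4, and Irf4 is also described below as a gene of activated B cells. Jchain and Derl3 were near noise, and Sdc1, Prdm1 and Tnfrsf17 had no usable probe, so this sum is no measure of plasma cells. The part of other cells in the results was not tested. In bulk RNA, fewer cells of a type and less RNA per cell cannot be told apart.

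The arrays of replicate 2 stood apart from the others of their labels. Over all 14640 features, 2 h replicates 1 and 3 correlated at 0.993 with each other, and 2 h replicate 2 correlated with them at 0.952 and 0.950. The array labelled 2 h replicate 2 was closest to untreated replicates 1 (0.994) and 3 (0.992), and untreated replicate 2 was in turn closest to 2 h replicates 1 (0.986) and 3 (0.982). Likewise, 1 h replicates 1 and 3 correlated at 0.990, whereas 1 h replicate 2 correlated with them at 0.945 and 0.947 and was closest to untreated replicate 2 (0.978). These are correlations across genes, which are not independent replicates. Whether labels of the replicate 2 arrays were exchanged was not tested. If they were, the differences with all arrays and the values of untreated replicate 2 would not be those of the named times. The deposited labels were kept, and each result is given with all 3 arrays per time and with replicates 1 and 3 only. The second choice was made with these values known, so its p-values understate chance and test nothing about the labelled times, and its counts are read as a description of those 4 arrays.

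With all arrays, limma called 0 of 14640 features at an adjusted p under 0.05 (0% of those tested in either direction), and the smallest adjusted p was 0.393. Without adjustment, 1001 features had a p under 0.05 (6.84% of those tested), and of them 643 were higher and 358 lower at 2 h. Every 2 h array lay above every 1 h array for 1015 features (6.93%) and below for 649 (4.43%). An exact permutation test of 3 arrays against 3 cannot give a two-sided p below 0.1. The median log2 difference over all features was -0.01, with 7110 higher and 7530 lower. With replicates 1 and 3 only, both 2 h arrays were above both 1 h arrays for 4295 features (29.3%) and below for 4500 (30.7%), and limma called 1768 higher (12.1%) and 2000 lower (13.7%). On those arrays 248 features were more than 1 log2 unit higher and 215 more than 1 lower, against 25 and 17 with all arrays. Unless another n is given, errors below are limma's standard errors with 3 arrays per time, or 2 per time where replicates 1 and 3 are named. Differences are log2 differences, 2 h minus 1 h, on the scale of log2 of the intensity plus 50. Among genes named below, the probes of Klf6, Crem, Srf, Nfatc1, Bcl2l11 and Rgs1 differed in sign on replicates 1 and 3, and those of Btg1, Hspd1, Eif5a, Polr1a, Mybbp1a, Id2, Bcl11a, Pecam1, Birc2, Cd44 and Zbtb32 with all arrays; further cases are given beside the gene.

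Immediate-early transcription factors were mostly lower at 2 h. Of 24 measured members 20 were lower at 2 h and 4 higher, with a median log2 difference of -0.52 against -0.01 over all features. None passed the test, and every 2 h array was below every 1 h array for 2 of the 24 (background 4.43%). With replicates 1 and 3 the median was -0.51, 18 of 24 members were lower, and 13 were called lower against 1 higher (backgrounds 13.7% and 12.1%, which hold for every count of called members on these arrays). The list's mean level, after centring each gene over the 9 arrays, was 0.80, -0.17 and 0.97 at 1 h against 0.36, -0.94 and 0.45 at 2 h. Replicate 2 was the lowest array at each time, and 2 h replicates 1 and 3 lay between 1 h replicate 2 and the other 1 h arrays.

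Within the FOS family, Fosb had the largest negative difference on replicates 1 and 3. Its intensities were 401, 0.421 and 398 at 1 h (replicates 1, 2 and 3) and 44.0, 3.57 and 51.1 at 2 h, against 13.9, 52.2 and 3.20 untreated. On replicates 1 and 3 the gene was well above all untreated arrays at 1 h, and at 2 h it was still above untreated replicates 1 and 3 and near untreated replicate 2, while both replicate 2 arrays were below noise. The log2 difference was -1.44 ± 0.79 with all arrays (adjusted p = 0.804, limma) and -2.20 ± 0.13 on replicates 1 and 3. Fos itself, the prototype AP-1 subunit, gave 326, 52.2 and 249.7 at 1 h against 117, 14.0 and 144 at 2 h, a difference of -0.83 ± 0.61 (-0.90 on replicates 1 and 3). For Fosl2, a slower member of the family, all 3 arrays at 2 h (281, 8.33 and 285) were below all 3 at 1 h (301, 301 and 460.1), but the drop on replicates 1 and 3 was only -0.34, and its probes differed in sign. Among JUN partners, Junb had -1.07 ± 0.94 (-0.86 on replicates 1 and 3), whereas Jun, at a low level throughout, had 0.03 ± 0.30 and Jund 0.07 ± 0.23.

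All 4 genes of the EGR family of zinc-finger factors were lower at 2 h, Egr4 the most. Egr4 had intensities of 1229.9, 183 and 1224 at 1 h against 291, 6.36 and 365 at 2 h, with 5.25, 359.8 and -2.92 untreated. Replicates 1 and 3 thus kept a level at 2 h above the untreated replicates 1 and 3, which were at noise. The difference was -1.86 ± 1.11 (adjusted p = 0.844, limma) and -1.76 ± 0.13 on replicates 1 and 3. Egr1 gave 10635, 4017 and 12904 at 1 h against 6918, 1279 and 7311 at 2 h, and Egr3 gave 10325, 3032 and 13659.9 and 6498, 1505 and 6964. In each of these genes replicate 2 was the lowest array of its time and the ranges of the times overlapped. On replicates 1 and 3 the differences were -0.72 ± 0.14 for Egr1, -0.46 ± 0.13 for Egr2 and -0.82 ± 0.17 for Egr3, and with all arrays -1.02 ± 0.99, -0.88 ± 0.82 and -0.87 ± 0.97. The EGR corepressor gene Nab2 went the other way on replicates 1 and 3, at 0.33.

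Other members differed in their course. Csrnp1, which encodes a cysteine- and serine-rich nuclear protein, had 2543, 832 and 2786 at 1 h against 1168, 1308 and 1237 at 2 h, against 1385, 1352 and 1374 untreated, a difference of -1.12 on replicates 1 and 3. Klf6, a Krüppel-like factor, was the other member with every 2 h array below every 1 h array (601, 450.1 and 527 against 322, 437 and 391, difference -0.41 ± 0.14, and -0.60 on replicates 1 and 3). Crem, a cAMP-responsive regulator, and Atf3, a stress-responsive bZIP factor, had -0.83 and -0.58 on replicates 1 and 3. Srf, which encodes the serum response factor that drives many of these genes, had 1149.6, 634 and 1826 at 1 h against 915, 476 and 1021 at 2 h, with -0.56 on replicates 1 and 3. Myc did not share this course: on replicates 1 and 3 it stood at a like level at both times, with 840.5, 583 and 816 at 1 h against 876, 56.4 and 801 at 2 h. Its difference was 0.02 ± 0.12 on those replicates and -0.85 ± 0.99 with all arrays, the latter set by the dim 2 h replicate 2. The orphan receptor gene Nr4a2 was higher at 2 h on replicates 1 and 3 (125, 156 and 202 at 1 h against 376, 5.77 and 401 at 2 h, difference 1.06). Nr4a1 had no usable probe.

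Promoter sequences are shown for Egr2 and Srf because these are the members whose promoter windows hold a CArG box, the element bound by SRF. The windows run from 250 bases before to 50 after a gene's start in RefSeq annotation of GRCm38.p6, and 19 of the 24 genes matched, with 28 windows. A CArG box on either strand was found in 5 of the 28 windows (17.9%), all of these 2 genes, against 1.63% of 32851 promoters of all genes. The windows of a gene overlap, and a match is a description of letters only. Capitals mark the CArG box.
Egr2, chr10:67537316-67537615, plus strand, 1 of its 5 windows: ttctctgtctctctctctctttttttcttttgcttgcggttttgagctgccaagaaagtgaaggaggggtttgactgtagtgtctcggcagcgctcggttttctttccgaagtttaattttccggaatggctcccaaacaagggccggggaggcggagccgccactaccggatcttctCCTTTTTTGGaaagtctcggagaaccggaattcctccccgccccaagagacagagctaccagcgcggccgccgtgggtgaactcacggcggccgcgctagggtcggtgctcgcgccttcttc
Srf, chr17:46556113-46556412, minus strand: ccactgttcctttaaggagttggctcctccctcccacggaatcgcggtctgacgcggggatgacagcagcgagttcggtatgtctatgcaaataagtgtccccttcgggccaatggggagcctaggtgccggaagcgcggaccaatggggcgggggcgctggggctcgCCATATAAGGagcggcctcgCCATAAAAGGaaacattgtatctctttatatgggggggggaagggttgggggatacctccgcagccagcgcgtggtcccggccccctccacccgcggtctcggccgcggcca
The Egr2 box begins 72 bases before the start and the farther of the Srf boxes 82 bases before it.

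**Figure D1:**
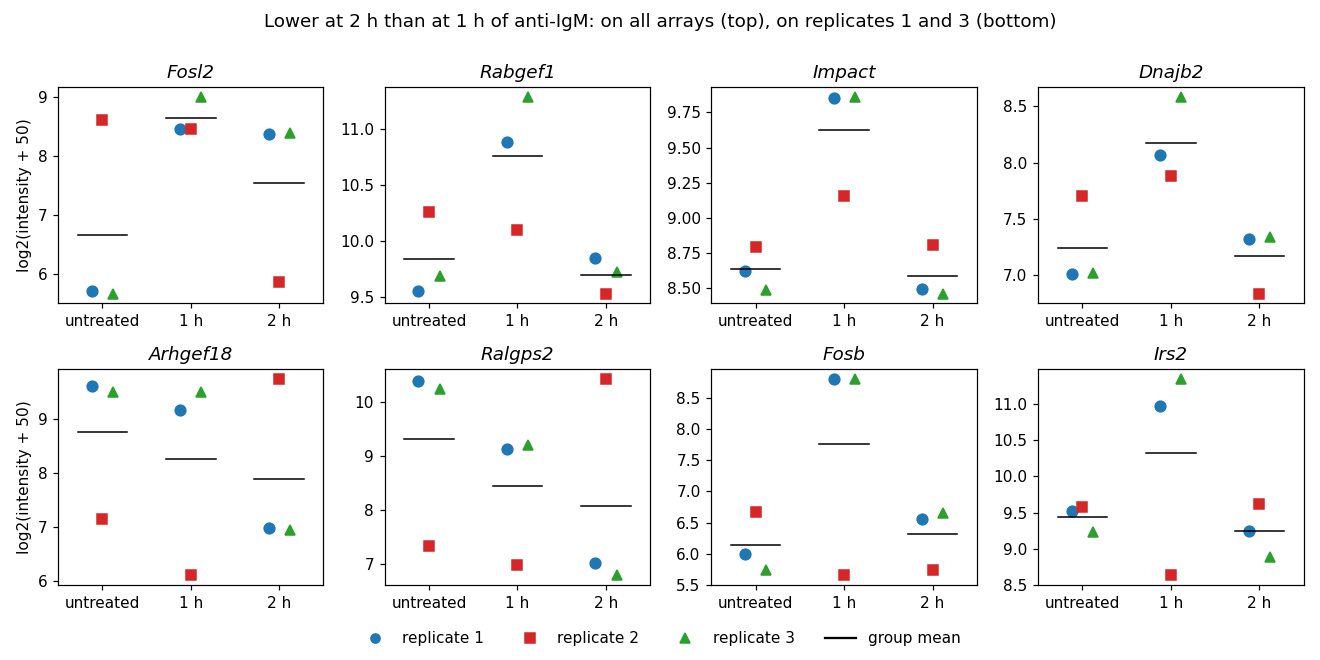
Levels on each of the 9 arrays, as log2 of the intensity plus 50, for 8 genes lower at 2 h than at 1 h of anti-IgM on all arrays or on replicates 1 and 3 (x axis: untreated, 1 h and 2 h; symbols: replicate; bars: group means; each panel has its own vertical scale). In the upper row (Fosl2, Rabgef1, Impact, Dnajb2) all 2 h arrays are below all 1 h arrays; in the lower row (Arhgef18, Ralgps2, Fosb, Irs2) this holds for replicates 1 and 3, and replicate 2 runs differently.

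Several other genes were above untreated replicates 1 and 3 at 1 h and nearer to them again at 2 h. Impact, whose product restrains the amino acid sensor kinase GCN2, had 872, 521 and 878 at 1 h, 310.0, 397 and 303 at 2 h and 343, 394 and 309 untreated. All 3 arrays at 2 h were below all 3 at 1 h, with a difference of -1.04 ± 0.20 (adjusted p = 0.396, limma) and -1.38 ± 0.12 on replicates 1 and 3. Rabgef1, an exchange factor for the endosomal GTPase RAB5, had 1838, 1048 and 2451 at 1 h against 868, 688 and 796 at 2 h, a difference of -1.06 ± 0.30 (-1.30 ± 0.14 on replicates 1 and 3), against 702, 1178 and 775 untreated. The cochaperone gene Dnajb2 showed the same order, with 219, 185 and 333 and 109.9, 64.0 and 112 and a difference of -1.01 ± 0.26. Irs2, the adaptor of the insulin and IL-4 receptors, changed more on replicates 1 and 3. It had 1961, 348 and 2572 at 1 h, 556, 733 and 422 at 2 h and 688, 711 and 550.4 untreated, with -2.10 ± 0.17 on replicates 1 and 3 and -1.08 ± 0.62 with all arrays. Replicate 2 of Irs2 ran in the opposite direction, from the lowest 1 h value to the highest 2 h value.

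Feedback regulators were divided. Among 14 MAPK phosphatases and Sprouty-type inhibitors, 7 were higher and 7 lower with all arrays (median -0.08), and 6 and 8 with replicates 1 and 3 (median -0.30), of which limma called 4 higher and 5 lower against backgrounds of 12.1% and 13.7%. Dusp16, a phosphatase for JNK and p38, was lower on every 2 h array (241, 201 and 218) than on any 1 h array (490.2, 256 and 568), with -0.79 ± 0.24 and -1.05 ± 0.12 on replicates 1 and 3. Dusp5, a nuclear ERK phosphatase, had 519.8, 28.6 and 469 at 1 h against 195, 33.9 and 189.9 at 2 h, so that only replicates 1 and 3 stood above the untreated replicates 1 and 3 at 1 h. Its difference was -1.17 ± 0.12 on those replicates and -0.75 ± 0.85 with all arrays, and the EGFR inhibitor Errfi1 had -0.98 and -0.96. The more abundant Dusp2 had 4243, 3459 and 6036 and 3862, 460.4 and 3901, with -0.38 on replicates 1 and 3. Dusp14 and Spred1 were higher on replicates 1 and 3, at 0.79 and 0.57.

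Of 15 mRNA decay factors 11 were lower with all arrays (median -0.10) and 10 with replicates 1 and 3 (median -0.21, with 1 called higher and 4 lower, against 12.1% and 13.7% of all features). Zfp36, which encodes tristetraprolin and destabilises mRNAs with AU-rich elements, had 3069, 1136 and 3371 at 1 h against 1438, 927 and 1264 at 2 h, against 942, 1397 and 1036 untreated. On replicates 1 and 3 the difference was -1.22 ± 0.12, and with all arrays the difference was -0.91 ± 0.39 (adjusted p = 0.72, limma). The antiproliferative gene Tob2 was below every 1 h array at 2 h (375, 282 and 529.7 against 253, 159.8 and 232, difference -0.73 ± 0.27). Btg1, among the most abundant of the list, had a difference of 0.00 ± 0.13 with all arrays and -0.03 with replicates 1 and 3.

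Genes of sterol synthesis and LXR targets were mostly lower at 2 h. Every 2 h array lay below every 1 h array for 7 of 19 members (background 4.43%), and above for 0 of 19. In all, 15 were lower and 4 higher, with a median of -0.49, and with replicates 1 and 3 there were 14 lower and 5 higher, a median of -0.26 and 7 called lower against 1 higher. The separated genes were Insig1, Stard4, Msmo1, Lss, Mvd, Hsd17b7 and Fdps. Insig1, the ER protein that retains the SREBP complex and is itself an SREBP target, had 461, 612 and 341 at 1 h against 262, 230.3 and 236 at 2 h. Its difference was -0.80 ± 0.18 (adjusted p = 0.409, limma) and -0.58 ± 0.15 on replicates 1 and 3, and its probes differed in sign. The enzyme genes Lss (180.2, 703 and 219 and 133, 140.0 and 149) and Hsd17b7 (512, 1199.5 and 610.2 and 433, 324 and 435) were highest on 1 h replicate 2. Without replicate 2 their differences were -0.38 and -0.33, against -0.92 and -0.80 with all arrays. Stard4, a cholesterol carrier, depended less on that array (-0.68 and -0.56), as did Msmo1 (-0.73 and -0.55). Idi1, an isoprenoid isomerase of the same pathway, was higher at 2 h (0.49 and 0.76). Hmgcs1 had no usable probe.

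The Insig1 promoter is shown because the gene separated by label and holds the E-box CACGTG, searched on both strands, which was present in 4 of 18 promoter windows of the list (22.2%; 15 of 19 genes matched) against 7.15% of all 32851 promoters. Capitals mark the motif, which begins 101 bases before the start.
Insig1, chr5:28071162-28071461, plus strand: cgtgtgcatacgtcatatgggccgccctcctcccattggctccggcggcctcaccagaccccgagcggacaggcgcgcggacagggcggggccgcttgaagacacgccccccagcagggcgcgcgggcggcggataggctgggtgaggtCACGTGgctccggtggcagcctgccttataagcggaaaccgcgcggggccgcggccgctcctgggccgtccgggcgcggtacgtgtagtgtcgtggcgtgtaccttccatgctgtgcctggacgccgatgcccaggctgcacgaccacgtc

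Genes of the resting state were mostly lower at 2 h on replicates 1 and 3, and divided with all arrays. Of 24 resting lymphocyte and FOXO target genes, 13 were higher and 11 lower with all arrays (median 0.00). With replicates 1 and 3, 21 were lower (median -0.40), 13 were called lower and 1 higher, against backgrounds of 13.7% and 12.1%. Klf2, which holds lymphocytes quiescent, had 340.0, 31.0 and 249 at 1 h against 115, 818 and 146 at 2 h, so 2 h replicate 2 was the highest of the 6 arrays and 1 h replicate 2 the lowest. Its difference was -0.92 on replicates 1 and 3 and 0.52 ± 0.91 with all arrays. The transcriptional repressor Bcl6 (-0.91), the stress-response gene Sesn1 (-0.89) and the chemokine receptor Ccr6 (-0.82) were in the same range on replicates 1 and 3. Txnip, a redox and glucose-uptake regulator, had 339, 416 and 298 at 1 h against 225, 1807 and 179 at 2 h, and its untreated arrays gave 2180.1, 218 and 2255. For replicates 1 and 3 it was thus already low at 1 h, and 2 h replicate 2 was near untreated replicates 1 and 3.

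In the receptor pathway, 15 of 21 proximal signalling genes were lower with replicates 1 and 3 (median -0.34), with 10 called lower and 2 higher, and 13 were lower with all arrays (median -0.11). Btk, the kinase that activates phospholipase C gamma, had 1858, 796 and 2086 at 1 h against 822, 2214 and 844 at 2 h. Its substrate gene Plcg2 had 2896, 1515 and 3045 and 1518, 3245 and 1203. In both genes replicates 1 and 3 were higher at 1 h and replicate 2 was higher at 2 h. The differences on replicates 1 and 3 were -1.19 for Btk, -1.11 for Plcg2, -1.45 for the exchange factor Vav2 and -0.58 for the receptor chain Cd79b. With all arrays Cd79b had 0.19 ± 0.50. Malt1, the paracaspase of the NF-kappaB branch, was higher in both comparisons (0.76 with all arrays and 0.77). Inhibitory coreceptors and phosphatases were likewise mostly lower on replicates 1 and 3, with 10 of 15 lower (median -0.23, 2 called higher and 7 lower). With all arrays they differed from the proximal genes, with 10 higher and 5 lower (median 0.08). The kinase Csk, which inactivates SRC-family kinases, had -1.34 on replicates 1 and 3, the coreceptor Cd22 -1.03 and the adhesion receptor Pecam1 -1.37. Lilrb4a, an inhibitory immunoglobulin-like receptor, went the other way (165, 431 and 201 at 1 h against 841, 76.5 and 827 at 2 h, 1.93 on replicates 1 and 3). With all arrays Cd22 had 0.09 ± 0.62, Pecam1 -0.44 ± 0.54 and Lilrb4a 0.64 ± 0.85. Among regulators of B cell identity, including the E and Id proteins, 13 of 17 were lower on replicates 1 and 3 (median -0.08, 3 called higher and 5 lower, against 12.1% and 13.7% of all features), led by Ets1 at -1.45, Bcl11a at -1.05 and Pou2f2 at -0.99. The dominant-negative regulator Id2 was higher, at 1.09.

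Most genes with the largest negative differences on replicates 1 and 3, a set of 15 that also holds Fosb, Irs2 and Egr4, were high on untreated replicates 1 and 3. Arhgef18, a guanine nucleotide exchange factor, had 519.7, 18.9 and 671 at 1 h against 75.7, 806 and 72.6 at 2 h, with 727, 90.6 and 675 untreated. The difference was -2.37 ± 0.13 on replicates 1 and 3 and -0.37 ± 1.14 with all arrays, since replicate 2 ran from the lowest to the highest value. Ralgps2, an exchange factor for RAL, followed with -2.27 ± 0.13, and Ripor2 with -1.95 ± 0.12; probes of both differed in sign in at least 1 comparison. The linker histone gene H1f2 had -1.93 (1818, 176 and 1371 and 347, 1404 and 409.6), the MYC antagonist Mxd4 -1.74, the ubiquitin ligase Marchf1, which lowers surface MHC class II, -1.75, and the kinase Lrrk2 -1.76. The cytoskeletal regulator Abi3 (-1.90), the kinase Sbk1 (-1.91), the sorting nexin Snx29 (-1.91), the scaffold Akap12 (-1.74) and the centrosomal gene Cep170 (-1.70) completed the set. Probes of Snx29, Mxd4, Lrrk2, Akap12 and Cep170 differed in sign as well. In each of these genes other than Fosb, Irs2 and Egr4, 2 h replicate 2 was above both other 2 h arrays, and the difference with all arrays was under 1 log2 unit in size.

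Ribosome biogenesis was the group with the highest median at 2 h on replicates 1 and 3. All 30 measured members were higher there (median 1.05), and 27 were called higher and 0 lower, against a background of 12.1%. With all arrays 23 were higher and 7 lower, with a median of 0.18, and 0 of 30 had every 2 h array on 1 side of every 1 h array. The list score was -0.48, 0.88 and -0.28 at 1 h against 0.64, -0.66 and 0.62 at 2 h. The array labelled 1 h replicate 2 was thus the highest of the 6 and 2 h replicate 2 the lowest.

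Nop56, a core protein of the box C/D snoRNPs that methylate rRNA, had the largest difference of the list on replicates 1 and 3. Its intensities were 342, 1739 and 364 at 1 h against 1347, 282 and 1078 at 2 h, with 318, 1116 and 354 untreated. For replicates 1 and 3, 1 h was still at the level of untreated replicates 1 and 3 and 2 h was clear of it, a difference of 1.64 ± 0.13, against 0.28 ± 0.77 with all arrays. Its partner Nop58 had 760.1, 1809 and 808 and 1691, 395 and 1919, and was above untreated replicates 1 and 3 already at 1 h (1.15 ± 0.12 on replicates 1 and 3). Small-subunit processome genes gave 1.60 for Rrp9, 1.48 for Nop14, 1.47 for Wdr43 and 1.35 for Wdr75. For the RNA polymerase I subunit genes Polr1a and Polr1b the differences were 1.24 and 1.31. The large-subunit factors Bop1 and Pes1, of the PeBoW complex, had 1.28 and 1.07. The nucleolar GTPase Gnl3 had 3076, 6749.9 and 3775 at 1 h against 6061, 1585 and 5532 at 2 h (0.76), and Npm1, the most abundant member, was nearly level (6834, 9851 and 6613 and 6830.2, 6810.0 and 7071, 0.05). Rrp1b, a nucleolar gene outside the list, had 154, 1233 and 268 at 1 h against 838, 129 and 864 at 2 h, with 1.82 on replicates 1 and 3.

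The E-box CACGTG, the letters bound by MYC and other basic helix-loop-helix factors, was found in 6 of 25 promoter windows of these genes (24%; 25 of 30 genes matched) against 7.15% of all 32851, in Mybbp1a, Nop2, Pes1, Rrn3, Tsr1 and Wdr43. It was also found in 5 of 28 windows (17.9%) of the immediate-early factors, which were mostly lower at 2 h. For genes named by their difference on replicates 1 and 3, it was in 0 of 17 windows of rises and 3 of 20 of falls. For genes separated on all arrays, it was in 1 of 9 windows of rises and 2 of 16 of falls. The motif was thus not particular to rising genes. Of the 6 ribosome biogenesis genes with the motif, Wdr43 is shown because it had the highest difference on replicates 1 and 3. Capitals mark the motif, here just downstream of the start.
Wdr43, chr17:71615965-71616264, plus strand: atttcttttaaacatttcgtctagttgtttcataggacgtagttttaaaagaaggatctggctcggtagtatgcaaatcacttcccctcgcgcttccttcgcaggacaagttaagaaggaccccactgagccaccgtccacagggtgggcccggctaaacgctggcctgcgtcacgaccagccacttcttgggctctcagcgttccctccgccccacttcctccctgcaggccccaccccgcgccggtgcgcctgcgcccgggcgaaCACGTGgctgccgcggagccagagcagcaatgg

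Genes that supply nucleotides and polyamines were also mostly higher on replicates 1 and 3. Of 20 members 19 were higher on replicates 1 and 3 (median 0.52, 13 called higher and 0 lower), and 10 were higher and 10 lower with all arrays (median 0.00). Srm, spermidine synthase, had 177, 1741 and 243 at 1 h against 1087, 121 and 1123 at 2 h against 107, 1194 and 129.6 untreated. For replicates 1 and 3 its level at 1 h was already above untreated replicates 1 and 3 and far below 2 h, and the difference between the times was 2.16 ± 0.14, against 0.31 ± 1.14 with all arrays. Ctps, which makes CTP, had 248, 1389.7 and 359.9 and 1278, 218 and 1119 (1.83 ± 0.15 on replicates 1 and 3). Purine synthesis genes Ppat and Prps1 had 1.56 and 1.21. The mitochondrial one-carbon enzyme Mthfd2 peaked on 1 h replicate 2 (535, 3377 and 374 at 1 h against 753, 401 and 735 at 2 h). Odc1 had no usable probe. A CACGTG was present in 3 of 23 promoter windows of this list (13%).

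**Figure D2:**
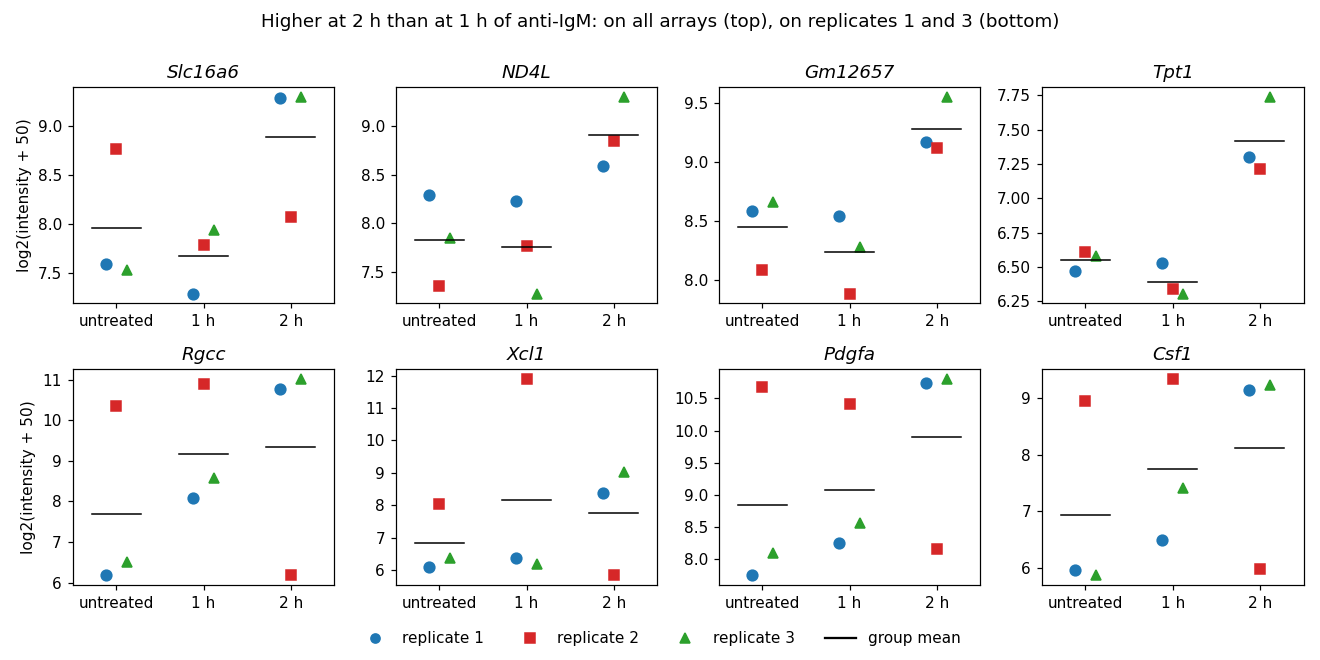
Levels on each of the 9 arrays, as log2 of the intensity plus 50, for 8 genes higher at 2 h than at 1 h of anti-IgM on all arrays or on replicates 1 and 3 (x axis: untreated, 1 h and 2 h; symbols: replicate; bars: group means; each panel has its own vertical scale). In the upper row (Slc16a6, ND4L, Gm12657, Tpt1) all 2 h arrays are above all 1 h arrays; in the lower row (Rgcc, Xcl1, Pdgfa, Csf1) replicates 1 and 3 are higher at 2 h while replicate 2 is high at 1 h and low at 2 h.

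Translation and protein folding genes showed the same division. For replicates 1 and 3, 24 of 27 initiation factors and tRNA synthetases were higher (median 0.47, 15 called higher and 1 lower), and with all arrays 8 were higher and 19 lower (median -0.11). The synthetase-complex gene Eef1e1 had 363, 932 and 424 at 1 h against 1264, 195 and 1419 at 2 h (1.65), and Eif5a, the hypusine-containing factor whose modification uses spermidine, 933, 3367 and 1018 and 1932, 942 and 1889.9 (0.94). The helicase Eif4a1 was high at both times on replicates 1 and 3 (7092, 9110.0 and 8479.7 and 8978, 3339 and 8519, 0.17). For 18 chaperones the counts were 15 higher and 3 lower on replicates 1 and 3 (median 0.71, 11 called higher and 1 lower) and 11 and 7 with all arrays (median 0.07). The mitochondrial chaperonin pair Hspd1 and Hspe1 had 1.28 and 0.80 on replicates 1 and 3, and Hspd1 had 0.21 ± 0.63 with all arrays. Every 2 h array was above every 1 h array for Hspe1 (455, 502 and 383 at 1 h against 643, 581 and 914 at 2 h) and for the cytosolic chaperonin subunit Cct5 (50.6, 56.9 and 43.1 and 93.1, 83.3 and 138), 2 of 18 against a background of 6.93%. Dnajb1, a heat-shock inducible cochaperone, was lower (-0.44 with all arrays and -0.67 on replicates 1 and 3).

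Secreted factors were largely higher at 2 h on replicates 1 and 3. Of 16 chemokine and cytokine genes 13 were higher there (median 0.47, 9 called higher and 1 lower), and 9 were higher with all arrays (median 0.10). Xcl1, lymphotactin, had 32.7, 3799 and 22.8 at 1 h, 282, 7.48 and 475 at 2 h and 18.7, 212 and 33.4 untreated. It was at its untreated level at 1 h on replicates 1 and 3 and above it at 2 h (2.43 ± 0.19), and its highest value by far was on 1 h replicate 2, so that the difference with all arrays was -0.40 ± 1.54. Csf1, the macrophage growth factor, had 40.2, 600.0 and 120.4 and 517, 13.2 and 549.6 (2.23 ± 0.22 on replicates 1 and 3). Ccl3 and Ccl4, chemokines for T cells and myeloid cells, were high at both times on replicates 1 and 3. Ccl3 had 2344, 6498 and 2403 at 1 h against 4611, 126 and 4841 at 2 h (0.98), and Ccl4 had 11402, 19817 and 14441 and 14819.6, 303 and 14396 (0.19). With all arrays these differences were -1.09 ± 1.48 and -1.81 ± 1.69, set by the dim 2 h replicate 2. Lta and Il12a had every 2 h array above every 1 h array, 2 of 16 against a background of 6.93%. Lta, lymphotoxin alpha, had 96.0, 128 and 72.5 at 1 h against 163, 137 and 159 at 2 h (0.46 ± 0.15), and Il12a, the p35 chain of IL-12, 44.7, 49.9 and 51.5 and 85.3, 76.2 and 94.0 (0.45 ± 0.10), which left 2 h near its untreated level. Pdgfa, a growth factor outside the list, had 256, 1313 and 328 and 1656, 237 and 1742 (2.36 ± 0.15 on replicates 1 and 3).

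The transcription factors of the second wave were mixed. Of 14, 9 were higher and 5 lower on replicates 1 and 3 (median 0.29, 5 called higher and 4 lower), and 6 and 8 with all arrays (median -0.15). Irf4, which directs activated B cells, was high at both times on replicates 1 and 3 (3167, 2502 and 3956 at 1 h against 4169.6, 556 and 4138 at 2 h, 0.23). Irf8 was the only member with every 2 h array above every 1 h array (1400.1, 1474 and 1839 and 2365, 1966 and 2191, 0.46 ± 0.22). That is 1 of 14, near the background of 6.93%. Tbx21, T-bet, had 0.573, 82.2 and 19.7 at 1 h against 183, -1.82 and 145 at 2 h, so on replicates 1 and 3 it was near noise at 1 h and clear of it at 2 h (1.85 ± 0.16). Zbtb32, a repressor of the PLZF family, had 1.20. Nfatc1, a target of calcineurin signalling, was lower (-0.74, and -0.43 with all arrays).

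Rgcc, a regulator of cell cycle progression, had the largest difference of any named gene on replicates 1 and 3. Its intensities were 220.5, 1859.9 and 329.7 at 1 h against 1700.3, 23.1 and 2039 at 2 h, with 23.0, 1248 and 41.2 untreated. Replicates 1 and 3 were between the untreated and 2 h levels at 1 h, and replicate 2 was reversed, so that the difference was 2.58 ± 0.17 on replicates 1 and 3 and 0.15 ± 1.56 with all arrays. Other genes of this kind were Bcat1, which transaminates branched-chain amino acids (2.16, probes differing in sign with all arrays), the lysolipid and DHA transporter Mfsd2a (1.78), the sialyltransferase St6galnac4 (1.79) and the tetraspanin Cd63 (1.74, but -0.17 with all arrays, where its probes also differed in sign). Zbed5, dim at 1 h on replicates 1 and 3, had 1.74. Rgs16, which switches off G protein signalling, had 22.0, 398 and 46.8 at 1 h against 187, -0.101 and 310.3 at 2 h (1.81 ± 0.19). The RGS and SOCS list as a whole was level, with 8 higher and 7 lower of 15 on replicates 1 and 3 (median 0.00, 2 called each way) and 11 and 4 with all arrays (median 0.14). Rgs1, a high-level member, had 986, 744 and 629 and 682, 30.3 and 896.

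A different set of genes was higher at 2 h on all 3 arrays, and most of it was close to or below the untreated level at 1 h. Slc16a6, a ketone-body transporter of the monocarboxylate family, had 107, 170.3 and 196 at 1 h, 573, 219.5 and 577 at 2 h and 143, 385 and 135 untreated, a difference of 1.21 ± 0.43 (adjusted p = 0.627, limma) and 1.67 ± 0.17 on replicates 1 and 3. Tpt1, the translationally controlled tumour protein, was dim but well separated, with 42.4, 31.1 and 29.1 at 1 h, 107, 98.5 and 163 at 2 h and 38.8, 47.7 and 45.5 untreated. Its difference of 1.02 ± 0.15 was the largest of these relative to its error (adjusted p = 0.393, limma). Ctss, the lysosomal protease that trims the invariant chain, had 167, 105 and 154 at 1 h against 281, 364 and 357 at 2 h (1.01 ± 0.18, and 0.80 on replicates 1 and 3). Atp5a1, the catalytic-head alpha subunit of ATP synthase, had 365, 367 and 429 and 641, 824 and 858 (0.91 ± 0.16), and the mitochondrially encoded ATP6 of the same enzyme 3002, 2037 and 2796 and 4246, 4532 and 5333 (0.85 ± 0.17). The complex I genes ND4L and Ndufb5 had 1.15 ± 0.31 and 0.84 ± 0.22. The G protein subunit gene Gng5 (0.86), the chromatin protein gene Hmgb1 (0.84) and the ribosomal protein paralog Rpl22l1 (0.83) completed the named set with the predicted genes Gm12657 (1.04) and Gm4832 (0.86). Several of these genes have near-identical copies in the genome, and 1 probe may read more than its own gene. The rule that named them asked for every 2 h array above every 1 h array, so that order is not a result.

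Among genes with every 2 h array below every 1 h array, the same rule named, besides those described, Slc6a9, a glycine transporter measured near noise outside 1 h replicate 2 (20.4, 239 and 18.0 at 1 h against 11.3, 9.98 and 7.42 at 2 h), and Pip5k1b, a lipid kinase (179, 353 and 199 and 98.7, 125 and 96.7, -0.86 ± 0.21). The histone methyltransferase gene Ehmt1 had 136, 163 and 123 and 29.7, 111 and 48.3 (-0.81 ± 0.24). Bcl2l11, which encodes the proapoptotic BIM, had 888, 1003 and 1053 at 1 h against 681, 289 and 809.9 at 2 h (-0.78 ± 0.48, and -0.36 on replicates 1 and 3).

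**Figure D3:**
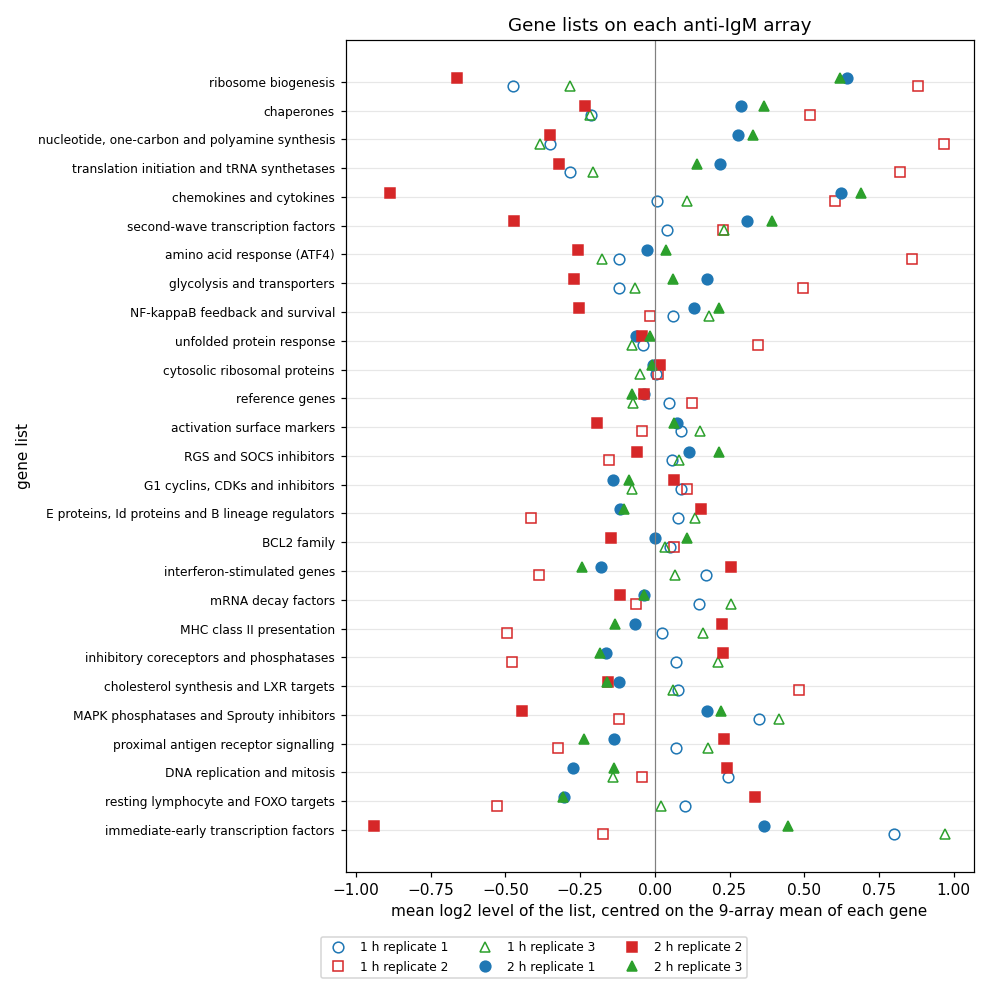
Mean level of 27 gene lists on each anti-IgM array, in log2 units with each gene centred over the 9 arrays (open symbols 1 h, filled symbols 2 h; shape and colour give the replicate; lists ordered by their median difference on replicates 1 and 3). For ribosome biogenesis at the top, 2 h replicates 1 and 3 are right of 1 h replicates 1 and 3 while the replicate 2 arrays are in the reverse order; for immediate-early factors at the bottom, every replicate is further left at 2 h.

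Surface molecules of activation were divided on replicates 1 and 3, with 11 of 22 higher and 11 lower (median 0.02, 5 called higher and 6 lower), and with all arrays 7 were higher and 15 lower (median -0.09). Cd69, the early activation antigen that retains lymphocytes in tissue, had 6375, 2562 and 6289 at 1 h against 3439, 999 and 3296 at 2 h, with -0.90 ± 0.12 on replicates 1 and 3 and -1.04 ± 0.68 with all arrays. Slamf7 (-1.32) and the PD-1 ligand Cd274 (-1.29) were lower on replicates 1 and 3, and the semaphorin Sema7a (1.42), the adhesion receptor Cd44 (0.85) and the IL-2 receptor chain Il2ra (0.80) higher. Cd83 had 5595, 3223 and 5846 and 4655, 4752 and 3865. NF-kappaB feedback and survival genes were 11 higher and 11 lower in both comparisons (medians 0.01 and 0.09), with 7 called higher and 6 lower on replicates 1 and 3. The inhibitor genes Nfkbia (0.56) and Nfkbie (0.86) were higher on replicates 1 and 3, as were the survival gene Bcl2a1b (0.75) and Tnfaip3, which encodes A20 (0.38). The nuclear inhibitor Nfkbid (-0.80) and the ubiquitin ligase Birc2 (-1.08) were lower there. With all arrays Nfkbia had 0.02 ± 0.37 and Tnfaip3 0.04 ± 0.33.

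The D cyclins differed in direction. For replicates 1 and 3 Ccnd2, which pairs with CDK4 and CDK6 in activated B cells, had a difference of 1.41 (488, 2135 and 610.3 at 1 h against 1456, 421 and 1627 at 2 h) and Ccnd3 of -1.25 (382, 149.7 and 329 and 118, 451 and 123). The probes of Ccnd2 differed in sign in both comparisons. In both genes the replicate 2 arrays were in the reverse order, and with all arrays the differences were 0.20 ± 0.88 and -0.39 ± 0.56. Of 16 G1 genes 5 were higher and 11 lower in either comparison, and of 18 replication and mitosis genes 15 were lower on replicates 1 and 3 (median -0.35, 1 called higher and 4 lower).

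Among genes of the amino acid response to ATF4, 12 of 19 were lower with all arrays (median -0.29) and 7 on replicates 1 and 3 (median 0.12, 5 called higher and 2 lower). Asns, asparagine synthetase, and Chac1, which degrades glutathione, were far brighter on 1 h replicate 2 than on any other anti-IgM array. Asns had 102, 1359 and 90.2 at 1 h against 299.6, 82.1 and 198 at 2 h, and Chac1 87.9, 1786 and 85.3 and 238, 95.6 and 324. Cebpb, a bZIP factor of the same response, was lower on every 2 h array (142, 219 and 129 against 88.7, 87.6 and 85.6, -0.61 ± 0.15). Of 12 MHC class II presentation genes 7 were higher with all arrays (median 0.14) and 3 with replicates 1 and 3 (median -0.23, 2 called higher and 4 lower). Of these 12, 2 separated upward and 1 downward, against 6.93% and 4.43% of all features. The class II chain gene H2-Aa had every 2 h array above every 1 h array (6726, 7632 and 6884 and 8946, 8503 and 9887, 0.36 ± 0.10), and the times overlapped for the other chain gene H2-Ab1 (21529.7, 25494 and 25626 and 22140.0, 20051 and 18730.2). Cd74, the invariant chain gene, was slightly lower on every 2 h array (23062, 24477 and 23438 and 22684, 22529 and 21953, -0.08 ± 0.09), and its probes differed in sign with all arrays. Interferon-stimulated genes were lower for 13 of 15 on replicates 1 and 3 (median -0.21, 0 called higher and 5 lower) and for 9 of 15 with all arrays (median -0.05). The unfolded protein response list (18 members) had medians of -0.15 and 0.04, glycolysis and transporters (16) -0.14 and 0.10, and the BCL2 family (13) 0.02 and -0.18, with all arrays and with replicates 1 and 3. Cytosolic ribosomal proteins (19) stood at 0.03 in both and reference genes (12) at -0.07 and 0.03.

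**Figure D4:**
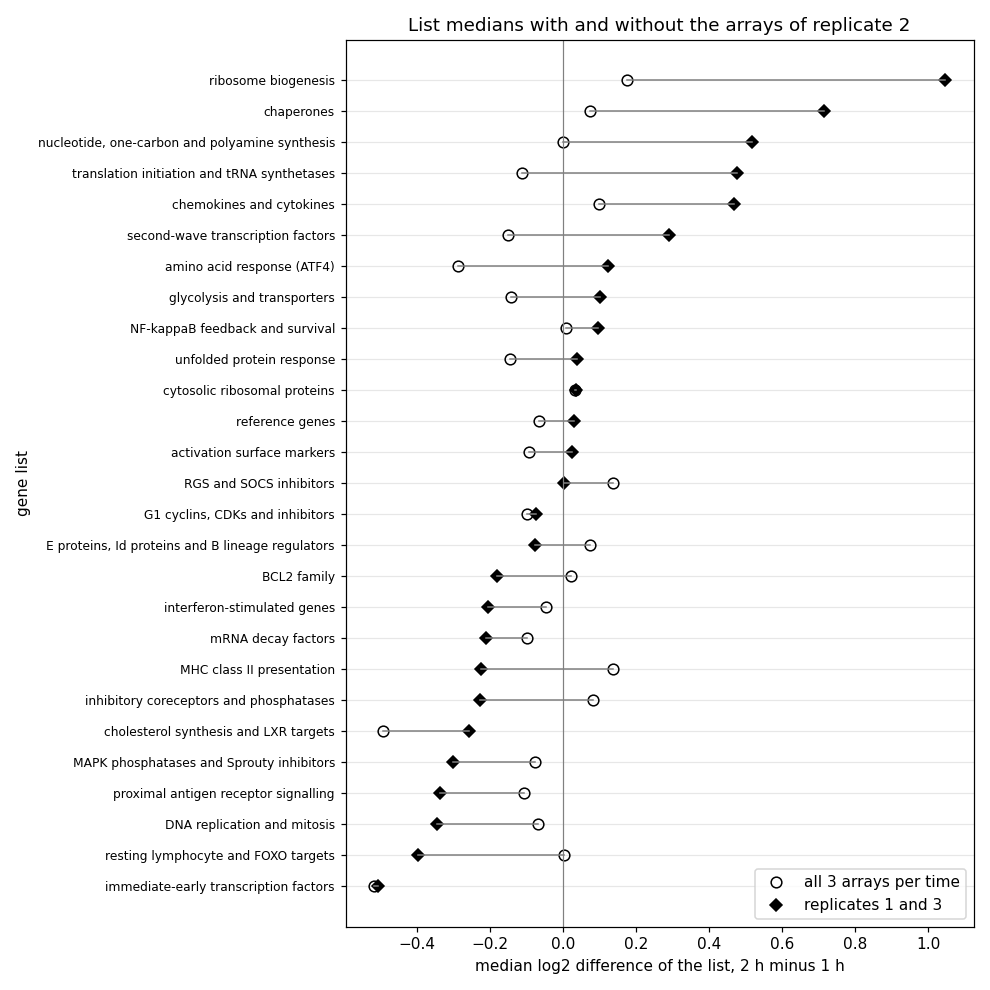
Median log2 difference, 2 h minus 1 h, of 27 gene lists with all 3 arrays per time (open circles) and with replicates 1 and 3 only (diamonds), joined by a line and ordered by the latter. Immediate-early factors are at -0.52 and -0.51 and cytosolic ribosomal proteins at 0.03 in both, while ribosome biogenesis moves from 0.18 to 1.05 and resting lymphocyte genes from 0.00 to -0.40.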

How the data were processed

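Biotin-labelled RNA of 9 samples was measured on Illumina bead arrays, per the labels' protocols. The deposited table gives linear intensities of 45281 probes per array, made with software not given in the sources used here. From the look of the values, the authors had subtracted background (31.8% of the deposited intensities are below 0) and normalized between arrays. Another deposited table, with signals before normalization, has 9 columns that match no single label, and it was not used.

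Analyses used log2 of the intensity plus 50. The noise threshold of an array was the upper 0.05 tail of its values below 0, mirrored around 0, and probes above it on at least 3 of 9 arrays were kept (20983). Symbols came from the platform's annotation, and 34807 of 34885 probes with 1 symbol matched RefSeq (GRCm38). Of 14640 features, 11104 were named and 3536 unnamed. More than 1 probe was kept for 4181 genes, and in 1915 of these they disagreed in sign. Limma 3.58.1 (R 4.3.3; lmFit, then eBayes; two-sided; 6 residual degrees of freedom) estimated a mean per group over the 9 arrays, with Benjamini-Hochberg adjustment over all features and calls at an adjusted p under 0.05. The fit of replicates 1 and 3 used the 6 arrays with those numbers (3 residual degrees of freedom). Identical arrays were looked for and 0 pairs found. The fit was tested on simulated data with independent values and the same spread for all features. The simulation held no array that stood apart from its label, so it does not cover such arrays. The number of arrays limits the precision.

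The gene lists and members were chosen with earlier results of these data known, so no list was tested and no list's direction is independent support. The rule for named genes took up to 12 genes in each direction whose arrays separated fully by label, up to 15 in each direction by the difference on replicates 1 and 3, the 2 brightest members of each list and 34 fixed genes. Other list members were named after their values were seen. Alternatives covered the offset, the filter, the choice of probe, quantile normalization, the variance model, array weights, the arrays in the fit, a replicate block and leaving out each array.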

Additional observations from a re-analysis of the deposited data

How the results depend on the processing

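Between the times, limma called 0 features with all 9 arrays, and also with only the 6 anti-IgM arrays, offsets of 16 or 100, no filter, probes above noise on all 9 arrays, averaged probes per gene, quantile normalization, trended and robust variances, and without any single array; the count was 3768 with replicates 1 and 3 and 25 with array weights. Features with every 2 h array above every 1 h array numbered 1015, and 4295 with replicates 1 and 3, 1867 with no filter, 673 with probes above noise on all 9 arrays, and 1015 to 2370 without 1 array, highest without 2 h replicate 2. Those below numbered 649, and 4500, 1471 and 386 under the same settings and 649 to 2470 without 1 array; the order of fewer arrays is met more often by construction. Of 122 named genes, only 61 kept their sign under every setting, and 56 turned sign when at least 1 of the single arrays was left out. By setting, 26 turned sign with replicates 1 and 3, 20 with array weights, 7 with averaged probes per gene and 2 with an offset of 16. Without 1 h replicate 1, 2 or 3, 27, 16 and 23 turned sign, and without 2 h replicate 1, 2 or 3, 23, 19 and 27. Among those whose difference exceeded its standard error, Ccl4 was 0.19, Ppia 0.019 and Rgs10 -0.057 with replicates 1 and 3, Eef1a1 was 0.15 with its probes averaged, and Rgs1 ranged from -1.76 to 0.016 without 1 array, highest without 2 h replicate 2. Of 27 list medians, 13 turned sign with replicates 1 and 3. The cause was not tested. With a replicate block, limma called 0 features (smallest adjusted p = 0.390). The deviations of same-numbered 1 h and 2 h arrays from their group means correlated at -0.44, -0.48 and -0.34. For untreated and 1 h arrays the values were 0.57, 0.52 and 0.24, and for untreated and 2 h arrays -0.71, -0.79 and -0.52. Those means include replicate 2, which stood apart in each group, so the values cannot show whether same-numbered arrays were paired. Background correction and normalization of the non-normalized signals with neqc was not run, since those columns could not be assigned. For dim probes, signal over background limits what can be seen.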

Other observations

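Respiratory and ribosomal genes were followed up in 4 gene groups that were chosen by symbol after the values were seen, so they carry no test. All 8 measured genes of the mitochondrial genome were higher at 2 h, with a median log2 difference of 0.41 (0.55 on replicates 1 and 3). Every 2 h array lay above every 1 h array for 5 of the 8, against 6.93% of all features. COX2, a subunit of cytochrome oxidase, had 2643, 1885 and 2657 at 1 h, 3591, 3835 and 4527 at 2 h and 2882, 2385 and 2577 untreated. ND1, of complex I, had 3844, 4153 and 3795 at 1 h, 5120.3, 6445 and 5696 at 2 h and 4051, 3902 and 4076 untreated. In both genes 2 h replicate 2 was with the other 2 h arrays and the 1 h arrays were near the untreated ones. This did not hold for all 8 genes, since the times overlapped for ND4, ND5 and ND6. ND5 had 322, 234 and 279 at 1 h against 547, 127 and 465 at 2 h, so its 2 h replicate 2 was the lowest anti-IgM array. ND6 was dim (3.57, 17.0 and 17.1 at 1 h against 12.2, 49.5 and 10.9 at 2 h).

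Nuclear genes of the respiratory chain and ATP synthase were higher for 45 of 70, with a median of 0.06. Of these 70, which include the pseudogene Ndufs5-ps, 11 separated upward and 0 downward, against 6.93% and 4.43% of all features. Mitochondrial ribosomal protein genes were higher for 47 of 73 (median 0.05), and for 56 of 73 on replicates 1 and 3 (median 0.20). All cytosolic ribosomal protein genes, taken by symbol, were higher for 38 of 59 (median 0.06). Of these 59, 20 separated upward and 4 downward, against 6.93% and 4.43% of all features. Ribosomal protein genes have many near-identical copies, so single probes may read several of them.

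With the array weights that limma estimates from these arrays, 25 features were called between the times, 20 higher and 5 lower at 2 h. Tpt1 was among those higher and Impact among those lower. The weights were lowest for the arrays of replicate 2 (0.343 untreated, 0.261 at 1 h and 0.307 at 2 h), and since they came from the same values, these calls are no firm test of the times.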
